A study of Mus musculus with 14 samples.

Results

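Antigen-presenting cells carry surface proteins that tell a T cell how to respond once its receptor has met antigen. The level of 8 genes of this kind, Cd40, Cd80, Cd86, Cd83, Cd274, Icosl, Icam1 and Slamf1, was followed in CD11b+ microglia/macrophages of mice with traumatic brain injury (TBI). These genes were taken by symbol, and all 8 had a row under their Ensembl identifier among the 33939 genes of the deposited table. The cells came from the injured ipsilateral (IL) and the non-lesion contralateral (CL) hemispheres of male C57BL/6 mice aged 8 to 12 weeks, at 3 days after controlled cortical impact. All mice had received tamoxifen. The control mice (Ctrl) were Cx3cr1-CreER+/- and the conditional knockout mice (cKO) were Cx3cr1-CreER+/-;Nhe1flox/flox, so both genotypes carried the Cre allele and the controls lacked the floxed allele. Cre was driven by Cx3cr1, which is active in microglia and in other CX3CR1-expressing myeloid cells, while CD11b magnetic beads also retain neutrophils and monocytes. RNA-seq libraries numbered 4 for Ctrl CL, 4 for Ctrl IL, 3 for cKO CL and 3 for cKO IL.

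CD80 and CD86 are the B7 ligands of CD28 and CTLA4, CD274 (PD-L1) is the ligand of the inhibitory receptor PD-1, and ICOSL is the ligand of ICOS. CD40 is a receptor of the TNF receptor family on the presenting cell. It is engaged by CD40 ligand of T cells, and its signal raises other costimulatory molecules. ICAM1 holds the contact through the integrin LFA-1, SLAMF1 is a self-ligand of the SLAM family that is used on both cells, and CD83 is a marker of mature dendritic cells that stabilises MHC class II and CD86 at the surface. Resting microglia are held to express such molecules weakly as a class and to raise several of them on activation. In these data Cd83, Icam1, Cd86 and Icosl had means of 2080, 631, 337 and 142 CPM in Ctrl CL. Between hemispheres the members moved in either direction, as given below.

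The libraries carried the numbers of 8 mice, 6 of which gave both hemispheres. Mouse 784 (cKO) gave only an IL library and mouse 788 (cKO) only a CL library. The reads assigned to genes ranged from 12.2 to 41.6 M per library. The value for a gene is given in CPM, the counts per 1e+06 counts of the library. In the genotype comparisons p values measure the spread between mice of a group. The fits of IL over CL and of the interaction took the hemispheres of a mouse as separate libraries. Their p values and counts therefore do not use the pairing, except where the mouse is named as a block or random term. The microglial markers P2ry12 and Tmem119 were present in every group, with means from 1597 CPM (Ctrl IL) to 4814 CPM (cKO CL) for P2ry12 and from 1521 CPM (cKO IL) to 3533 CPM (Ctrl CL) for Tmem119. T and NK cell markers summed to between 3.36 and 13.9 CPM in all 14 libraries. Neutrophil markers summed to 432 to 5580 CPM in Ctrl CL, 137 to 792 in Ctrl IL, 409 to 1173 in cKO CL and 176 to 275 CPM in cKO IL. The 4 Ctrl mice and cKO mouse 3592 carry 4-digit numbers, while the other cKO mice, 784, 788 and 791, carry 3-digit numbers. What this difference in numbering stands for is not given in the sources used here.

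The promoters of Slamf1 and Cd274, which passed the test in at least 1 comparison, and of Icam1, which held a motif of the interferon-gamma pathway, are shown first. Each is the 250 bases before the transcription start in RefSeq on build GRCm38.p6, written 5′ to 3′ on the strand of the gene, which is the plus strand for all 3. They lie at chr1:171766882-171767131 (Slamf1), chr19:29367188-29367437 (Cd274) and chr9:21015690-21015939 (Icam1). Capitals mark a motif match.
Slamf1: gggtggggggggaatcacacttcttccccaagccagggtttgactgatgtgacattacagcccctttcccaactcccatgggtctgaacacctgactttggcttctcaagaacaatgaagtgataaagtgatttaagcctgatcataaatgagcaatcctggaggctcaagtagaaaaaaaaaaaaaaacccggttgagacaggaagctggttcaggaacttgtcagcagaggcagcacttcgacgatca
Cd274: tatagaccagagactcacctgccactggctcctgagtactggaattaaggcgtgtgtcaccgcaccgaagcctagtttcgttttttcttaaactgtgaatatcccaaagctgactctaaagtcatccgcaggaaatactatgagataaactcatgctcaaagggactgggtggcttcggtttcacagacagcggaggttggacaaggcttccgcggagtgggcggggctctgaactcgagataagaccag
Icam1: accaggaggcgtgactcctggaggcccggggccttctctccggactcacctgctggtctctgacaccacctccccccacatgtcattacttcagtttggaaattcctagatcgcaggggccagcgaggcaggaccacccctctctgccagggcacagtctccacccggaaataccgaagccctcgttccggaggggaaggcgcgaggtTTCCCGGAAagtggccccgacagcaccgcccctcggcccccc
Of the 8 members, 5 had such a promoter sequence (Cd80, Cd274, Icosl, Icam1 and Slamf1). Both strands were searched for the NF-kB motif, the GAS motif of the interferon-gamma pathway (TTCNNNGAA), the interferon-stimulated response element (ISRE, GAAANNGAAA) and the PU.1 motif (GAGGAAGT). The Icam1 promoter held the GAS match TTCCCGGAA at positions -42 to -34 from the start, and the Icosl promoter held an NF-kB match on the minus strand at positions -111 to -102. The promoters of Slamf1, Cd274 and Cd80 held no match to these motifs. Only matches to the pattern searched were counted. The lack of a match, as for NF-kB in Icam1, therefore does not show that a site is absent. Among 32851 promoters of the same length, 7.25% held the NF-kB motif, 7.02% the GAS motif, 2.98% the ISRE and 2.44% the PU.1 motif.

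Per kilobase of exon, the members kept nearly the same order of level in the 4 groups. In Ctrl IL the means ran from Cd83 with 939 CPM per kb through Icam1 with 103, Cd86 with 60.2, Icosl with 18.8, Cd274 with 11.5, Cd80 with 3.75 and Cd40 with 2.25 to Slamf1 with 0.762 CPM per kb, and no neighbours in this order overlapped between libraries. In Ctrl CL the levels per kb of Cd274 and Cd80 overlapped, as did those of Slamf1 and Cd40. Slamf1 stood last in cKO CL with 0.234 CPM per kb and in cKO IL with 0.240 CPM per kb, and was apart from its neighbour in both. Cd40 was below Cd80 in Ctrl IL, overlapped with it in cKO CL, and was above it in cKO IL, with 5.64 against 2.50 CPM per kb.

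**Figure D1:**
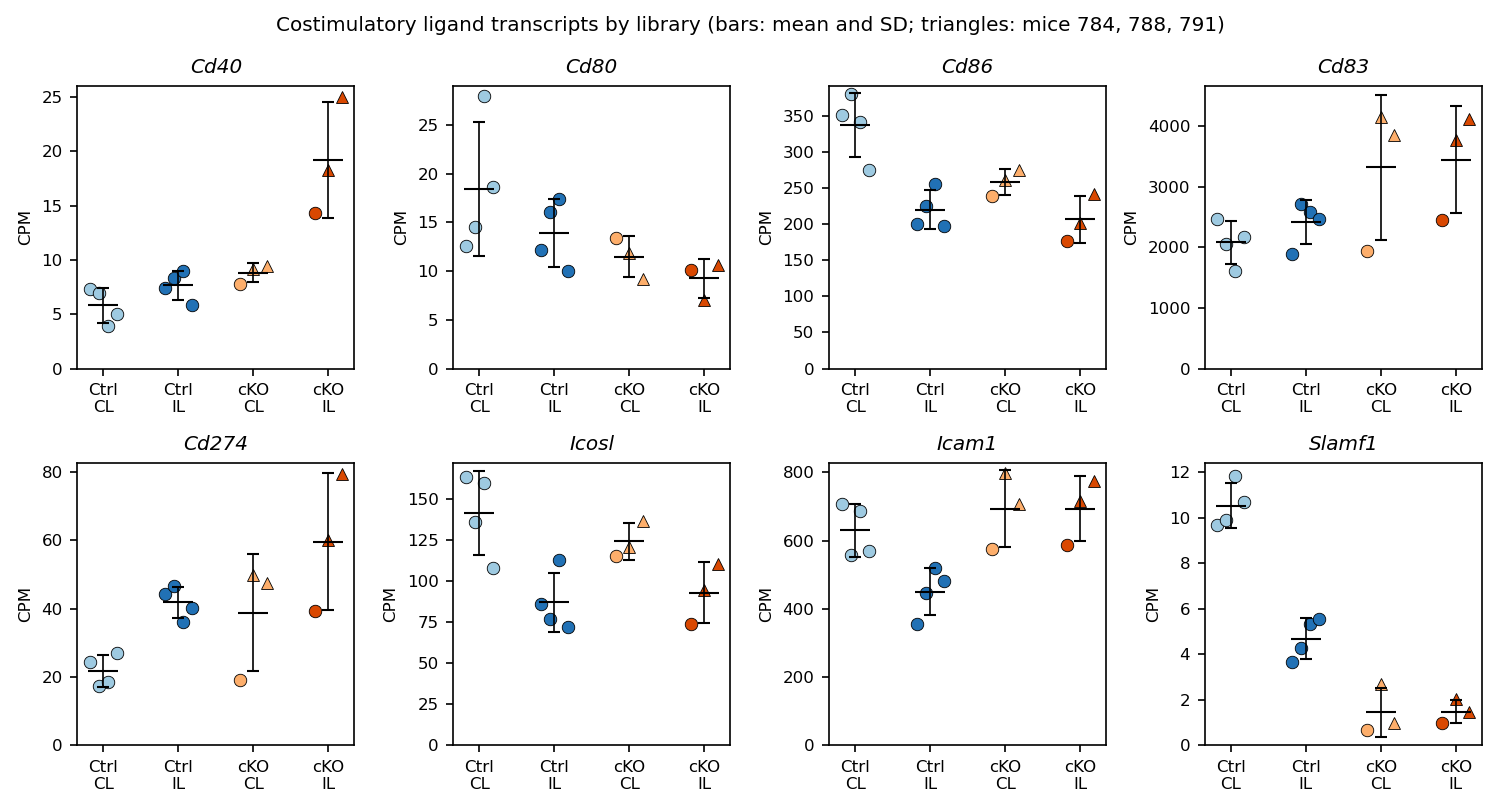
Level of the 8 genes in CPM in each library of the 4 groups, with a point per library and a bar at the group mean. Slamf1 in both cKO groups lies below every Ctrl library, Cd40 in cKO IL lies above every other library, and cKO mouse 3592 lies among the Ctrl libraries for Cd83 and Cd274.

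The comparison of cKO with Ctrl asked whether deletion of Nhe1 in Cx3cr1-expressing cells moved the costimulatory genes. Slamf1 fell in both hemispheres. The level of Cd40 in cKO IL was more than 2 times that in Ctrl IL without passing the test, and no member other than Slamf1 passed it. A gene was called at an adjusted p of at most 0.05 (limma, Benjamini-Hochberg over all genes tested) and a fold change of at least 1.2. In the IL hemispheres 1 of 8 members was called, beside 0.670% of the 16873 genes tested, and in the CL hemispheres 1 of 8, beside 0.905% of 16569 genes. Over all genes tested, 1559 had an unadjusted p under 0.05 in IL and 1686 in CL. Counts of list genes at that level below stand beside these. In the IL hemispheres 2 members lay wholly above and 1 wholly below the Ctrl libraries, where 10.3% of all genes did not overlap. In the CL hemispheres these numbers were 1 and 2, where 10% of all genes tested did not overlap. The median log2 fold change of the 8 members was 0.29 in IL and 0.02 in CL, against 0.01 and -0.02 over all genes tested. Fewer cells of a type and less RNA per cell cannot be told apart in these bulk libraries.

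Slamf1 (ENSMUSG00000015316, chr1:171767127-171801184 on GRCm38) encodes SLAM, the founding member of its receptor family. In CL it was at 9.66, 9.91, 11.9 and 10.7 CPM in Ctrl mice 3541, 3545, 3546 and 3551, and at 0.658, 2.68 and 0.983 CPM in cKO mice 3592, 788 and 791. In IL it was at 3.64, 4.27, 5.32 and 5.53 CPM in the same Ctrl mice, and at 0.967, 2.02 and 1.44 CPM in cKO mice 3592, 784 and 791. The lowest Ctrl library of either hemisphere was above the highest cKO library of any hemisphere. The log2 fold change of cKO over Ctrl was -2.29 ± 0.28 (SE) in CL, with an adjusted p of 0.00417, which is 0.204 times the Ctrl level on the scale of CPM plus 1. In IL it was -1.19 ± 0.20, or 0.438 times, with an adjusted p of 0.0493. The CL call held under every alternative with at least 2 libraries per group. The IL call lay at the threshold and was lost on omission of any library but Ctrl IL 3546 (6 of 7 fits) and under most other settings, with adjusted p from 0.0269 to 0.237 where each group kept at least 2 libraries, and no change of direction. With only mice of 4-digit numbers, where the cKO group is mouse 3592 alone, a split chosen after seeing the data, the log2 fold change was -2.79 in CL and -1.54 in IL, given here with no test. The values rest on 17 to 402 reads per library.

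The hemispheres of Ctrl mice also differed in Slamf1. In Ctrl it fell from CL to IL by 0.96 ± 0.16 on the log2 scale, with an adjusted p of 0.00803 in limma, and in all 4 mice the IL library was the lower. In the 2 cKO mice with both hemispheres, 3592 and 791, the IL library was the higher, by 0.25 and 0.39 on the log2 scale. These rest on 17 and 27 reads in CL and 29 and 55 reads in IL. The CL library of cKO mouse 788, at 2.68 CPM, was above every cKO IL library. The fitted difference of 0.12 ± 0.32 in cKO did not pass (adjusted p 0.815). The test of the difference between these responses, the interaction of genotype and hemisphere in all 14 libraries, gave 1.06 ± 0.36 with an unadjusted p of 0.00967 and an adjusted p of 1.0. Of 18475 genes 0 were called in that fit and 477 had an unadjusted p under 0.05. No member was called there, and Slamf1 alone of the 8 had an unadjusted p under 0.05.

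The SLAM family was followed as a list of 8 further receptors and 3 adaptors. In each of the genotype comparisons 9 of these 11 genes were tested and 0 were called, with 8 below 0 and 1 above 0 on the log2 scale. An unadjusted p under 0.05 was reached by 5 in either hemisphere, beside 1559 of 16873 genes tested in IL and 1686 of 16569 in CL. The median log2 fold change of the 9 was -0.36 in IL and -0.58 in CL. The gene above 0 was Slamf8, a receptor of myeloid cells, at 0.85 ± 0.19 in IL (adjusted p 0.139) and 0.92 ± 0.22 in CL (adjusted p 0.112). Slamf7, a self-ligand receptor, was at -1.81 ± 0.32 in IL (adjusted p 0.0546) and -0.84 ± 0.26 in CL (adjusted p 0.249). Cd48, the ligand of CD244, was at -0.32 ± 0.19 in IL (adjusted p 0.709), and the mean ratio of Slamf1 to Cd48 in CPM was 0.0371 in Ctrl IL and 0.0142 in cKO IL. Sh2d1a, which encodes the adaptor SAP of T and NK cells, was at most at 0.0947 CPM on average in the IL groups. The sequence of Slamf1 transcripts shares runs of at least 100 bases at 97% identity or more with 18 other genes, so a part of its reads could be assigned elsewhere.

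Most SLAM genes lie together on chromosome 1, and other genes of that stretch also moved. Within 500 kb of the start of Slamf1, 4 of 32 genes were called in the IL comparison of genotypes, all lower, and 3 of 31 in CL, all lower, beside 0.670% and 0.905% of all genes tested. These were Slamf1, Usf1 and F11r in both hemispheres and Pex19 in IL. They were named after their values had been seen. Usf1, which encodes a basic helix-loop-helix transcription factor, was at -1.46 in IL and -1.37 in CL with adjusted p values of 0.00243 and 0.00516 in limma. F11r, which encodes the junctional adhesion molecule JAM-A, was at -1.07 and -1.05 on the log2 scale with adjusted p values of 0.00383 and 0.00909. Pex19, a peroxisome biogenesis gene, was at -0.72 in IL (adjusted p 0.0409). Within 1000 kb, 5 of 59 genes were called in IL, and the added gene, the potassium channel gene Kcnj10, was higher by 1.70. In CL the count within 1000 kb was 3 of 59. Within 3000 kb, 11 of 91 genes were called in IL (4 higher and 7 lower) and 8 of 89 in CL (2 higher and 6 lower), beside the same 0.670% and 0.905%. The largest change among them was that of Ifi202b, higher by 5.29 in IL and 3.38 in CL (adjusted p 5.04e-06 and 5.88e-05 in limma). Mndal was called lower in both, at -1.71 in IL and -2.64 in CL (adjusted p 0.0219 and 0.000313). Their part in the fall of Slamf1 was not tested.

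**Figure D2:**
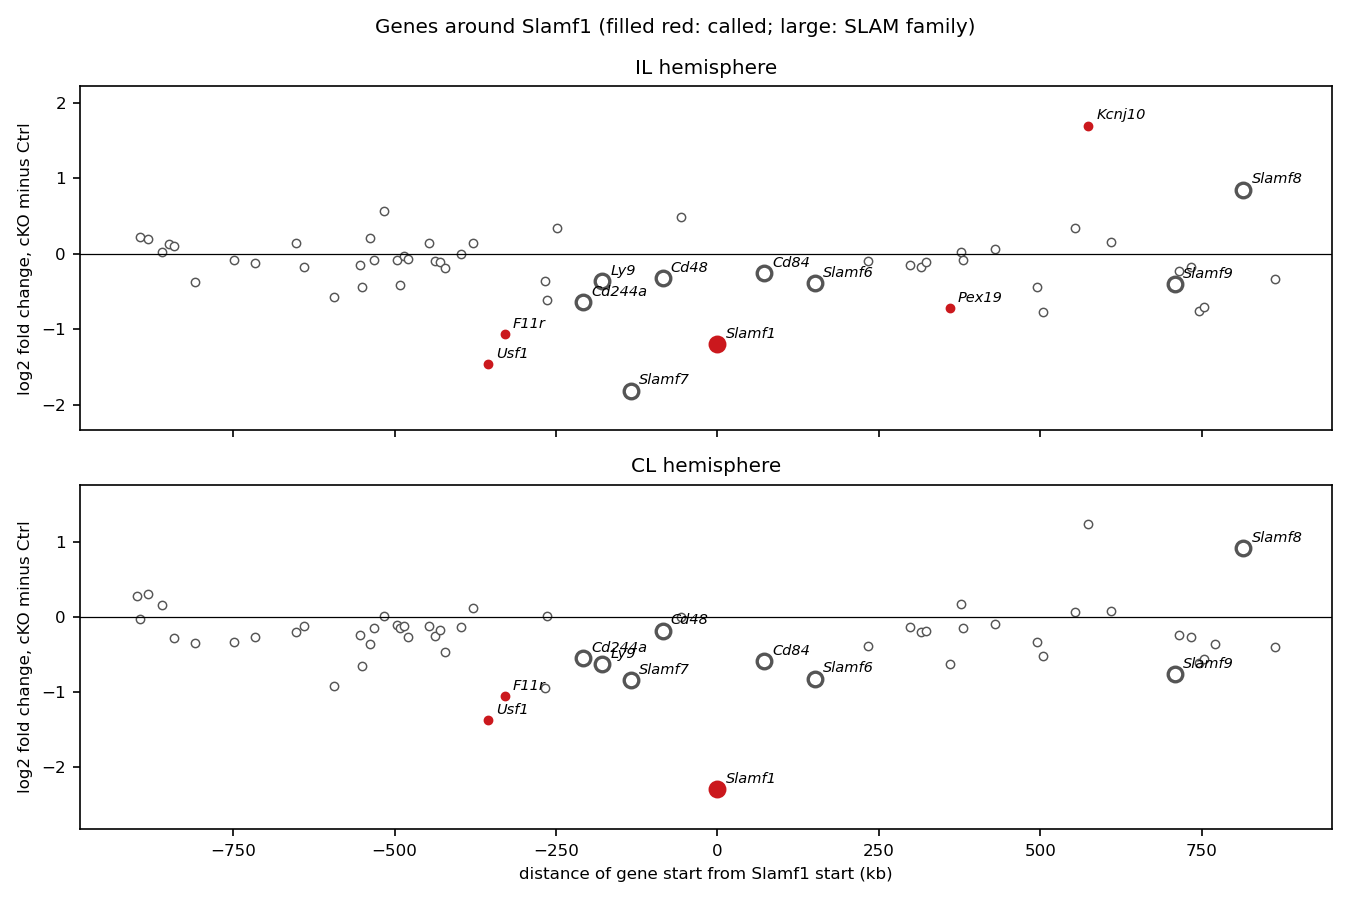
Log2 fold change of cKO over Ctrl for genes tested around the start of Slamf1 (distance in kb on the horizontal axis), in IL and in CL, with called genes filled red and SLAM family genes as large circles. Usf1, F11r and Slamf1 are called lower in both panels, and the median of all genes tested within 500 kb was -0.16 in IL and -0.19 in CL.

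Cd40 (ENSMUSG00000017652, chr2:165055627-165072948) was the member with the highest fold change in cKO IL. It was at 7.43, 8.36, 9.0 and 5.88 CPM in Ctrl IL (mice 3541, 3545, 3546 and 3551) and at 14.3, 18.3 and 25.0 CPM in cKO IL (mice 3592, 784 and 791). All cKO IL libraries lay above all Ctrl IL libraries. The log2 fold change was 1.22 ± 0.24 (SE), or 2.33 times, with an adjusted p of 0.0909 in limma, so Cd40 was not called. It was called when all 14 libraries were fitted together (adjusted p 0.0493), when that fit also held the mouse as a random term (0.0397), and without the library Ctrl IL 3546 (0.0369). In CL it was at 7.33, 6.97, 3.88 and 5.04 CPM in Ctrl and at 7.82, 9.19 and 9.46 CPM in cKO mice 3592, 788 and 791. These groups did not overlap either, although mouse 3592 exceeded the highest Ctrl library by less than 1 CPM, and the log2 fold change of 0.59 ± 0.26 did not pass (adjusted p 0.480).

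Between hemispheres Cd40 rose in cKO. Its log2 fold change of IL over CL was 1.07 ± 0.23 there, with an adjusted p of 0.0135, and it was higher in IL in both mice with both hemispheres. It was the only member called in that comparison, 1 of 8 beside 23.1% of 16756 genes, and 2 members did not overlap between the hemispheres, beside 42.4% of all genes. In Ctrl the log2 fold change was 0.44 ± 0.25 (adjusted p 0.359), with IL higher in 4 of 4 mice by 0.14 to 1.06. The difference of the responses was 0.62 ± 0.38 (unadjusted p 0.120, adjusted p 1.0), so it was not shown that Cd40 responded more in cKO.

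The pathway below CD40 runs through TRAF adaptors to both arms of NF-kB. Of 16 genes of CD40 signalling, 0 were called in either genotype comparison, with a median log2 fold change of 0.22 in IL and 0.02 in CL. An unadjusted p under 0.05 was reached by 4 in IL and 3 in CL, beside 1559 of 16873 and 1686 of 16569 genes tested. In IL these were Relb (0.75 ± 0.19, adjusted p 0.178) and Nfkb2 (0.71 ± 0.17, adjusted p 0.149), the pair of the non-canonical arm, the NF-kB inhibitor Tnfaip3 (0.66 ± 0.18, adjusted p 0.217) and Traf1 (0.42 ± 0.17, adjusted p 0.485). In CL they were Tnfaip3 (0.91 ± 0.30, adjusted p 0.305), Rel of the canonical arm (0.71 ± 0.21, adjusted p 0.224) and Traf6 (0.34 ± 0.14, adjusted p 0.413). In the other hemisphere Relb was at -0.03, Nfkb2 at 0.14 and Traf1 at 0.41 in CL, and Rel was at 0.39 and Traf6 at 0.02 in IL. Between hemispheres Traf1, an inducible adaptor, rose in both genotypes, by 1.59 in Ctrl (adjusted p 0.00206) and 1.61 in cKO (adjusted p 0.00536). Traf5 fell in both, by 0.57 (adjusted p 0.0262) and 0.53 (adjusted p 0.0228). In cKO, Nfkb2 (0.93) and Tank (0.40) were also called higher and Nfkb1 (-0.66), Birc2 (-0.50) and Traf2 (-0.31) lower. The calls were 3 higher and 4 lower of 16 in cKO, where 23.1% of all genes were called, and 1 and 1 in Ctrl, where 7.52% were. Those 5 genes had the same sign in Ctrl without a call, at 0.36 for Nfkb2, 0.28 for Tank, -0.53 for Nfkb1, -0.39 for Birc2 and -0.53 for Traf2, and none was called in the interaction. These calls did not pair the hemispheres of a mouse. In CPM, Nfkb1, Birc2 and Traf2 were lower and Tank higher in IL in every Ctrl mouse, and Nfkb2 was higher in every Ctrl mouse but 3541.

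Over the 14 libraries the log2 values most like those of Cd40 were those of Oas1g (Pearson r 0.94), Ifi44 (0.93), B3gnt7 (0.92), Rasgef1b (0.92) and Trim30a (0.91). Oas1g, Ifi44 and Trim30a are known as interferon-stimulated genes. These are the 5 highest of 18475 genes, and the libraries share groups and mice, so the values are a description. Among the members, Cd40 ran with Cd274 (r 0.78) and Cd83 (r 0.78) and against Slamf1 (r -0.64) and Cd80 (r -0.62). After removal of the group means r was 0.57 with Cd274, 0.73 with Cd83, 0.18 with Slamf1 and -0.11 with Cd80, and it was 0.87 with Cd86 and 0.70 with Icosl.

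Cd80 and Cd86 bind the same receptors and differed in level and pattern. Cd80 (ENSMUSG00000075122, chr16:38455561-38496335) was at 12.1, 16.1, 17.4 and 9.97 CPM in Ctrl IL and at 10.1, 6.99 and 10.6 CPM in cKO IL. In CL it was at 12.5, 14.5, 28.0 and 18.7 CPM in Ctrl and at 13.4, 11.9 and 9.17 CPM in cKO. The highest cKO library overlapped with Ctrl in both hemispheres. The log2 fold changes were -0.51 ± 0.23 in IL (adjusted p 0.564) and -0.55 ± 0.25 in CL (adjusted p 0.477), and neither passed. Between hemispheres the differences of -0.27 in Ctrl and -0.23 in cKO were about the size of their SE of 0.26 and 0.20.

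Cd86 (ENSMUSG00000022901, chr16:36603869-36666081, minus strand) was the more abundant B7 ligand, and the mean ratio of Cd80 to Cd86 in CPM was 0.0625 in Ctrl IL and 0.0452 in cKO IL. In Ctrl it was at 352, 381, 342 and 276 CPM in CL and at 201, 226, 257 and 198 CPM in IL, and the IL library was the lower in 4 of 4 mice. The log2 fold change of IL over CL was -0.52 ± 0.16 with an adjusted p of 0.0845, which passed with the mouse as a fixed block (adjusted p 0.00675) and as a random term in the joint fit (0.00450). In cKO Cd86 was at 240, 261 and 275 CPM in CL and at 177, 202 and 242 CPM in IL, which overlap, and the difference of -0.26 ± 0.15 did not pass (adjusted p 0.244). The cKO CL libraries lay just below all Ctrl CL libraries, with a log2 fold change of -0.34 ± 0.17 (adjusted p 0.547). In IL the genotypes overlapped, and the 95% interval of the difference ran from -0.43 to 0.28.

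Icosl (ENSMUSG00000000732, chr10:78069302-78083913) followed Cd86, with r 0.88 over the 14 libraries and 0.87 after removal of the group means. It was at 163, 136, 160 and 108 CPM in Ctrl CL and at 86.3, 77.1, 113 and 72.1 CPM in Ctrl IL. The groups overlapped through the CL library of mouse 3551 and the IL library of mouse 3546, yet IL was the lower in each of the 4 mice. The difference of -0.62 ± 0.20 had an adjusted p of 0.0922 and passed with the mouse as a fixed block (0.00381) and as a random term (0.00397). In cKO Icosl was at 116, 121 and 137 CPM in CL and at 73.7, 94.8 and 111 CPM in IL, apart by little, with a log2 fold change of -0.36 ± 0.18 (adjusted p 0.173). The genotype differences were 0.12 ± 0.20 in IL and -0.14 ± 0.18 in CL, with 95% intervals from -0.33 to 0.57 and from -0.55 to 0.27.

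Cd274 (ENSMUSG00000016496, chr19:29367455-29388095) rose in the injured hemisphere of Ctrl mice. It was at 24.3, 17.2, 18.5 and 27.1 CPM in Ctrl CL and at 44.3, 46.6, 36.0 and 40.3 CPM in Ctrl IL, and every IL library was above every CL library. The log2 fold change was 1.01 ± 0.20, or 2.01 times, with an adjusted p of 0.0144. Together with Slamf1 it made 2 of 8 members called in that comparison, beside 7.52% of 16359 genes, and 4 members did not overlap between hemispheres, beside 17.7% of all genes. The call was lost without the libraries Ctrl CL 3545, Ctrl IL 3541 or Ctrl IL 3545. In cKO it was at 19.1, 50.0 and 47.4 CPM in CL (mice 3592, 788 and 791) and at 39.4, 60.0 and 79.6 CPM in IL (mice 3592, 784 and 791).

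In cKO the Cd274 groups overlapped because mouse 3592 was low in both hemispheres, and the unpaired difference of 0.73 ± 0.40 did not pass (adjusted p 0.228). The fixed mouse block, which rests on mice 3592 and 791 and drops the libraries of 784 and 788, gave an adjusted p of 0.00220, with IL higher in both, and the random term gave 0.0425. Between genotypes the log2 fold changes of Cd274 were 0.47 ± 0.27 in IL (adjusted p 0.694) and 0.75 ± 0.33 in CL (adjusted p 0.466). Mouse 3592 lay within the Ctrl range in both hemispheres, and mice 784, 788 and 791 lay above it. Without the library cKO CL 3592 the CL difference was 1.2 (adjusted p 0.0452). With 4-digit mice alone it was -0.14 in CL and -0.12 in IL. An antisense gene overlaps Cd274 and reached at most 2.32 CPM, and the library kit does not mark strand, so reads of the overlap cannot be told apart.

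**Figure D3:**
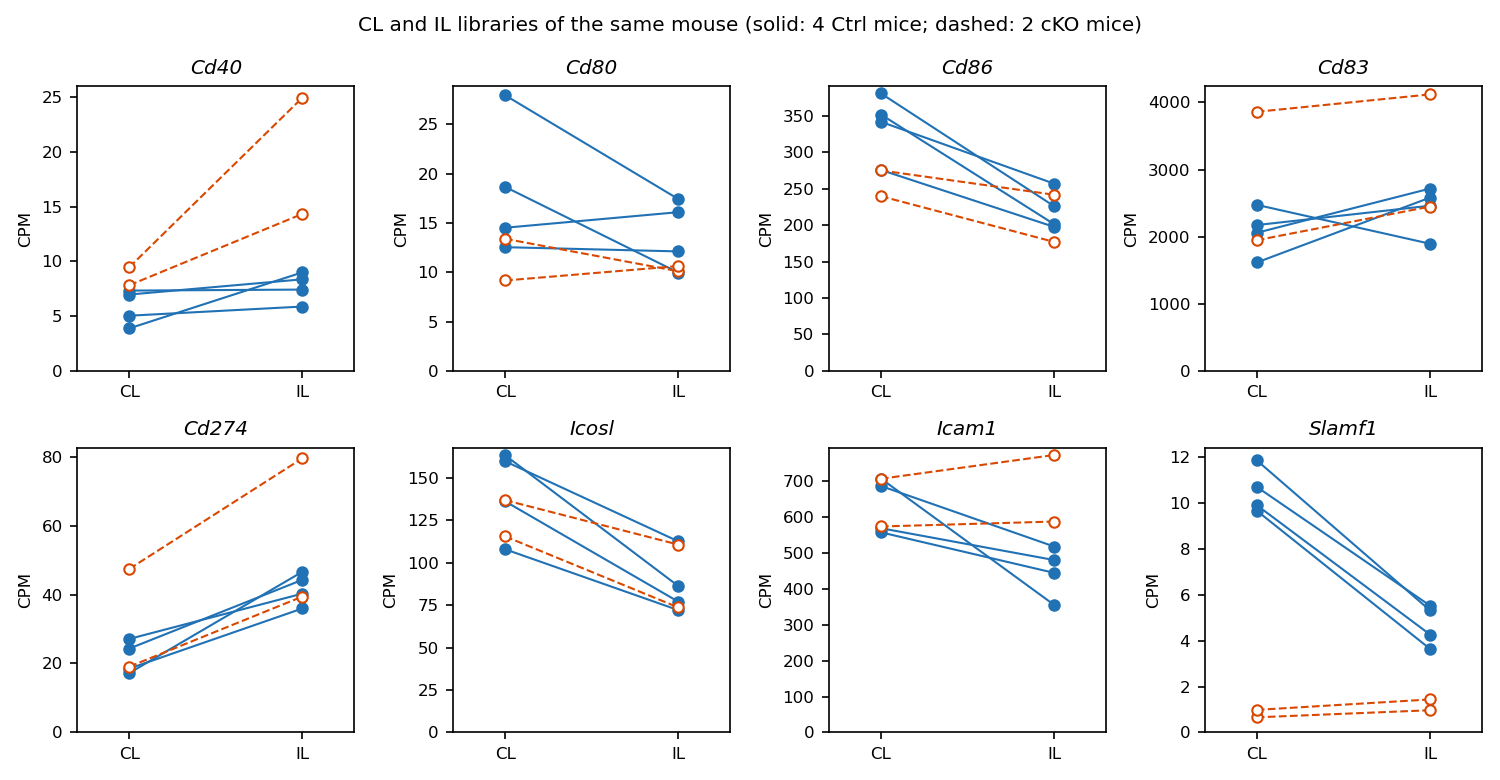
Level in CPM of each gene in the CL and IL hemispheres, with a line joining the libraries of a mouse. Lines of all 4 Ctrl mice slope down for Cd86, Icosl, Icam1 and Slamf1 and up for Cd40 and Cd274, and the lines of both cKO mice slope up for Cd40, Cd274, Cd83, Icam1 and Slamf1 and down for Cd86 and Icosl.

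Cd83 (ENSMUSG00000015396, chr13:43784775-43803132) was the most abundant member. It was at 2474, 2058, 1616 and 2173 CPM in Ctrl CL and at 1895, 2717, 2582 and 2462 CPM in Ctrl IL. In cKO it was at 1947, 4153 and 3861 CPM in CL and at 2449, 3773 and 4120 CPM in IL. Mouse 3592 again lay within the Ctrl range, while mice 784, 788 and 791 lay above every Ctrl library. The log2 fold changes of cKO over Ctrl were 0.51 ± 0.23 in IL (adjusted p 0.573) and 0.65 ± 0.31 in CL (adjusted p 0.519), and with 4-digit mice alone they were -0.02 and -0.06. Between hemispheres Cd83 differed by 0.30 ± 0.19 in Ctrl and 0.16 ± 0.36 in cKO, and neither passed. Cd83 and Cd274 ran together over the libraries, with r 0.85, and with 0.88 after removal of the group means.

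Icam1 (ENSMUSG00000037405, chr9:21015985-21028817), the gene with the GAS match above, was lower in IL than in CL in all 4 Ctrl mice. It was at 708, 558, 687 and 570 CPM in Ctrl CL and at 356, 445, 518 and 481 CPM in Ctrl IL, without overlap. The log2 fold change was -0.41 ± 0.14 with an adjusted p of 0.124, and it passed once the mouse entered as a random term in a joint fit of the 14 libraries (adjusted p 0.0343) but not with the mouse as a fixed block in the Ctrl libraries (adjusted p 0.0610). In cKO it was at 574, 799 and 707 CPM in CL and at 588, 717 and 774 CPM in IL, and the difference was 0.07 ± 0.19. In both cKO mice with both hemispheres IL was slightly the higher. All cKO IL libraries lay above all Ctrl IL libraries, with a log2 fold change of 0.65 ± 0.15 and an adjusted p of 0.143, and the CL libraries overlapped (0.17 ± 0.18). The interaction of 0.46 ± 0.24 had an unadjusted p of 0.0814, so a difference in response was not shown. An antisense gene that overlaps Icam1 reached at most 1.66 CPM.

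**Figure D4:**
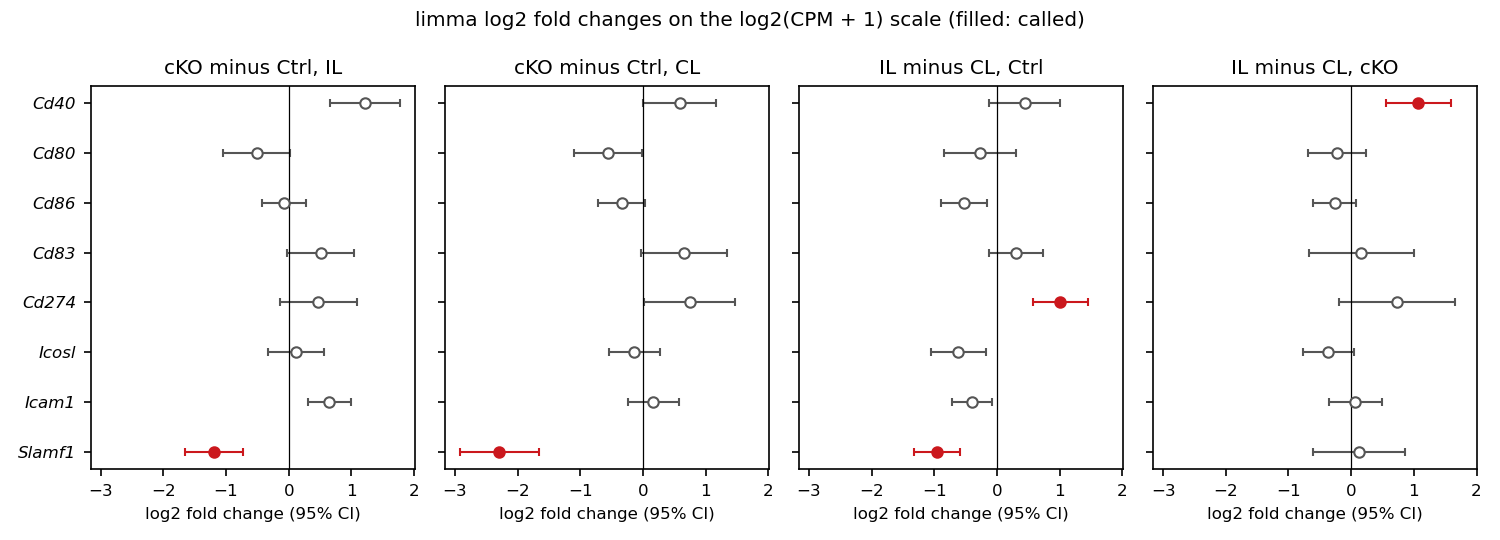
Log2 fold changes of the 8 genes with 95% intervals for cKO over Ctrl in IL and CL and for IL over CL in Ctrl and cKO, with called differences filled. Slamf1 is called lower in both genotype comparisons and between the Ctrl hemispheres, Cd274 is called higher between the Ctrl hemispheres, and Cd40 between the cKO hemispheres.

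The other ligands of T-cell co-receptors formed a list of 15 genes, of which 13 had a row and Vtcn1 and Cd70 had none. In the genotype comparisons 0 of 12 tested in IL and 0 of 9 tested in CL were called. An unadjusted p under 0.05 was reached by 2 and 3, beside 1559 of 16873 and 1686 of 16569 genes tested. Between hemispheres 2 of 10 tested were called in Ctrl and 4 of 11 in cKO, beside 7.52% and 23.1% of all genes. Tnfsf9, which encodes the 4-1BB ligand, rose in both genotypes. It was at 40.9 ± 14.6 CPM (SD, n = 4) in Ctrl CL and 175 ± 65.3 in Ctrl IL, and at 80.3 ± 22.8 (n = 3) in cKO CL and 304 ± 56.1 in cKO IL. The log2 fold changes of IL over CL were 2.15 ± 0.36 in Ctrl (adjusted p 0.00718) and 1.99 ± 0.22 in cKO (adjusted p 0.00215). Vsir, which encodes the inhibitory ligand VISTA, fell in both, from 1379 ± 201 to 669 ± 132 CPM in Ctrl (-0.96, adjusted p 0.00418) and by 0.88 in cKO (adjusted p 0.00624). In cKO, Pvr, the ligand of CD226 and TIGIT, rose by 0.89 (adjusted p 0.0121). Pdcd1lg2, the other PD-1 ligand, rose there by 0.45 (adjusted p 0.0426) from a level of 0.139 to 0.540 CPM. In Ctrl the values were 0.44 for Pdcd1lg2 (adjusted p 0.0865), with IL wholly above CL, and 0.46 for Pvr (adjusted p 0.311), and the interactions of 0.015 and 0.41 were not called.

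The receptors that bind these ligands were a list of 17 genes, 16 of which had a row, while Cd40lg, the CD40 ligand gene, had none. Myeloid cells express some of them, and most of the list's level came from Itgam, the gene of the CD11b protein used for sorting (group means from 1086 to 1280 CPM), Itgb2 (697 to 896 CPM) and Havcr2 (269 to 400 CPM), beside the 3.36 to 13.9 CPM of all T and NK cell markers. In the genotype comparisons 0 of 12 in IL and 0 of 11 in CL were called. An unadjusted p under 0.05 was reached by 4 and 1, beside 1559 of 16873 and 1686 of 16569 genes tested. Ctla4 averaged between 0.111 and 0.270 CPM in the groups and Cd28 between 1.56 and 3.05 CPM. Between hemispheres 0 of 11 were called in Ctrl, with 3 at an unadjusted p under 0.05, beside 3592 of 16359 genes tested. In cKO 2 of 13 were called higher, Itgal (1.18, adjusted p 0.0157), which encodes the LFA-1 chain that binds ICAM1, and Tnfrsf9 (0.98, adjusted p 0.00855), the receptor of the Tnfsf9 product. These shares lie beside 7.52% of all genes called in Ctrl and 23.1% in cKO. In Ctrl the log2 fold changes were 0.69 for Itgal and 0.68 for Tnfrsf9, and neither gene was called in the interaction. Both had IL means in Ctrl near those in cKO, at 18.0 against 16.5 CPM for Itgal and 1.40 against 1.57 CPM for Tnfrsf9.

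Between hemispheres some SLAM family genes were called. Cd244a, the CD48 receptor, rose by 2.18 in Ctrl (adjusted p 0.00797) and 2.08 in cKO (adjusted p 0.00208), and Slamf8 fell by 1.03 (adjusted p 0.0218) and 1.09 (adjusted p 0.00583). Slamf7 rose by 1.54 in Ctrl (adjusted p 0.0126), where Slamf9 fell by 0.55 (adjusted p 0.0388), and Ly9 rose by 1.5 in cKO (adjusted p 0.0146). The counts were 2 higher and 2 lower of 9 tested in Ctrl and 2 higher and 1 lower of 9 in cKO, beside 7.52% and 23.1% of all genes called. Ly9 was at 1.24 in Ctrl, Slamf7 at 0.55 and Slamf9 at -0.19 in cKO, none of them called.

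Of 11 genes that set the level of these ligands, 0 were called in either genotype comparison. An unadjusted p under 0.05 was reached by 2 in IL and 0 in CL, beside 1559 of 16873 and 1686 of 16569 genes tested. Ifngr1, a chain of the interferon-gamma receptor, fell in IL by 0.76 in Ctrl (adjusted p 0.0184) and 1.10 in cKO (adjusted p 0.00457). Cmtm6, whose product keeps PD-L1 at the surface, fell by 0.76 (adjusted p 0.0156) and 1.05 (adjusted p 0.00402). Marchf1, a ubiquitin ligase that removes CD86 and MHC class II, fell by 0.80 in both (adjusted p 0.0130 and 0.00362).

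Markers of other antigen-presenting cells were read beside these values. The 9 dendritic cell markers were all above 0 on the log2 scale for cKO over Ctrl in IL, with a median of 0.50, and 0 were called, while 3 had an unadjusted p under 0.05. Their sum was 370 to 411 CPM in cKO IL and 250 to 313 CPM in Ctrl IL, and 507 to 785 CPM in cKO CL against 289 to 532 CPM in Ctrl CL. Most of this sum was Fscn1, which encodes the actin bundling protein fascin, with means of 572 CPM in cKO against 357 in Ctrl for CL, and 304 against 218 CPM for IL. In CL 6 of the 9 markers were above 0 on the log2 scale and 3 below, and the mean of Zbtb46 was 5.13 CPM in cKO against 7.14 CPM in Ctrl. The cross-presenting dendritic cell marker Clec9a averaged at most 0.437 CPM in any group. For IL over CL, 1 of the 9 was called higher and 0 lower in Ctrl, and 1 higher and 2 lower in cKO, beside 7.52% and 23.1% of all genes. The marker called higher was Ccr7, a receptor of migrating dendritic cells, at 1.86 in Ctrl (adjusted p 0.00206) and 1.76 in cKO (adjusted p 0.00875). Fscn1 (-0.82, adjusted p 0.0116) and the transcription factor gene Batf3 (-0.91, adjusted p 0.0114) were called lower in cKO, and in Ctrl they were at -0.57 (adjusted p 0.183) and -1.03 (adjusted p 0.0849). The lectin gene Cd209a had means of 35.2 CPM in CL and 13.6 CPM in IL in Ctrl (adjusted p 0.0636), and 34.0 and 21.9 CPM in cKO (adjusted p 0.204). Of the 7 B cell markers, 5 were under 1 CPM in every library of each group, and their sum was 36.7 to 43.2 CPM in cKO IL against 56.1 to 77.1 CPM in Ctrl IL. The 8 infiltrating monocyte markers summed to 190 to 264 CPM in cKO IL and 162 to 376 CPM in Ctrl IL, and to 99.5 to 228 CPM in cKO CL and 93.5 to 725 CPM in Ctrl CL, with Chil3 the highest of the 8 by mean in each group. For IL over CL, 3 of the 8 were called higher in Ctrl (F10, Ccr2 and Vcan) and 4 in cKO (F10, Plac8, S100a4 and Vcan), and 0 lower in either. F10, the gene of coagulation factor X, ran from 0.560 to 6.13 CPM in Ctrl CL and from 22.3 to 41.2 CPM in Ctrl IL (adjusted p 0.00297), and from 1.24 to 3.91 CPM in cKO CL and from 23.9 to 31.3 CPM in cKO IL (adjusted p 0.00195). The chemokine receptor gene Ccr2 ran from 30.8 to 40.9 CPM in Ctrl CL and from 59.1 to 91.7 CPM in Ctrl IL (adjusted p 0.00365), and its cKO groups overlapped (0.73 ± 0.43, adjusted p 0.260). Between genotypes 0 of the 8 were called in either hemisphere, and 0 had an unadjusted p under 0.05. All 7 neutrophil markers were below 0 on the log2 scale for IL over CL in both genotypes, with a median of -2.65 in Ctrl and -1.27 in cKO. In Ctrl 0 were called and 5 had an unadjusted p under 0.05, beside 3592 of 16359 genes tested. In cKO 4 were called (S100a8, S100a9, Ly6g and Ngp), beside 23.1% of all genes. For cKO over Ctrl, 6 of 7 were below 0 in IL and 7 of 7 in CL, and 0 were called, with 0 and 3 at an unadjusted p under 0.05. Of 8 microglial markers, 5 were called lower in IL than in CL in Ctrl and 6 in cKO, beside 7.52% and 23.1% of all genes, with Tmem119, P2ry12, Siglech, Cx3cr1 and Gpr34 called in both. Between genotypes 1 of the 8 was called in IL and 0 in CL, with 1 in each at an unadjusted p under 0.05. This was Olfml3, a secreted microglial protein gene, with IL means of 2189 CPM for Ctrl and 989 CPM for cKO (-1.13 ± 0.17, adjusted p 0.0243), and 3001 against 1399 CPM in CL (-1.07 ± 0.24, adjusted p 0.0940), without overlap in either hemisphere. The 7 border macrophage markers were all below 0 on the log2 scale for cKO over Ctrl in both hemispheres and 0 were called, with 0 in IL and 4 in CL at an unadjusted p under 0.05. Their sum was 321 to 704 CPM in Ctrl CL, 479 CPM in cKO CL mouse 3592 and 180 and 284 CPM in mice 788 and 791. In IL it was 486 to 804 CPM in Ctrl, 646 CPM in mouse 3592 and 312 and 387 CPM in mice 784 and 791. Of 10 genes of the response to tissue dissociation, 4 were called lower in IL than in CL in cKO (Fos, Jun, Hspa1a and Hspa1b) and 1 in Ctrl (Hspa1b), beside 23.1% and 7.52% of all genes. Between genotypes Hspa1b had means of 1842 CPM in Ctrl and 379 CPM in cKO in CL, and 513 and 109 CPM in IL. Hspa1a was at 1897 and 529 CPM in CL, and at 620 and 223 CPM in IL. Ier2 was higher in cKO, with 1436 CPM in Ctrl and 2224 CPM in cKO in CL, and 1305 and 1927 CPM in IL. The genotypes did not overlap for these genes in either hemisphere. The part of these marker genes in the differences of Slamf1, Cd40, Icam1, Cd86, Icosl, Cd83 and Cd274 was not tested.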

How the data were processed

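RNA-seq was from Smart Seq v4 libraries of MACS-isolated CD11b+ cells, sequenced paired-end on NovaSeq. Per the labels, the authors used STAR, the mm10 build and Partek Flow 8.0. The deposited values, named raw counts, sum to 1e+06 in each library and are CPM. A step that differs between libraries divides 79.0% to 83.7% of the values under 100 reads without remainder (tolerance 0.03), and depth was read from it, at a median of 34.2 M reads. Since multiples were not general, count tests were not run, although the design had foreseen them for whole counts, and limma on log2 values was the test. The authors also deposited, for 2 comparisons, p-values, step-up FDR, a ratio, a signed fold change and group means, which were not used.

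CPM were scaled per library by the unweighted trimmed mean of M-values (30% of M and 5% of A trimmed) and transformed as log2(CPM + 1), so fold changes of low genes are understated. A gene entered if its CPM equalled 10 or more reads at median depth in a number of libraries equal to the size of the smaller group, with at least 15 reads in total, and all 8 members entered in all 5 comparisons. The fits used limma 3.58.1 (R 4.3.3), took only the libraries of a comparison, and had a trend and Benjamini-Hochberg adjustment, and was tested on simulated data. A call required an adjusted p of at most 0.05 and a fold change of at least 1.2. Mouse numbers mark hemispheres of the same mouse. The correlations of deviations from the group means were 0.184 to 0.603 for 6 such pairs and -0.530 to 0.499 for 19 other pairs.

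The members and lists were chosen with earlier results of these data known. Of the lists, many of the genes called in a comparison were named, and a few more were named after their values had been seen. Positions are from GENCODE on GRCm38. A few genes of the design and the lists are not reported here. Other steps ran in Python 3.11.15 (matplotlib 3.10.9, scipy 1.17.1, pandas 2.3.3, numpy 2.4.6). Alternatives were other scalings, pseudocounts of 0.5 and 0.1, other filters, all 14 libraries in a single fit, the mouse as a block, a fold change of at least 2, the adjusted p alone, and leaving out each library.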

Additional observations from a re-analysis of the deposited data

How the results depend on the processing

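Member calls for cKO over Ctrl in IL were 0, in place of 1, with upper-quartile or median-ratio scaling, the deposited CPM without scaling, pseudocounts of 0.5 and 0.1, no filter, 10 reads in every library, and mice with 4-digit numbers only, an alternative chosen after seeing the data in which a lone cKO library is assumed to vary like the Ctrl libraries. They were 2 when all 14 libraries were fitted together, also with the mouse as a replicate block, and 0 to 2 when a library was left out. The cause was not tested. Counts over all genes in IL were 69 without a filter, 171 with all 14 libraries, 190 with the mouse block, 4 with 4-digit mice, and 44 to 293 when a library was left out, the highest without Ctrl IL 3546.

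In CL the member calls were 1 to 2 when a library was left out, the latter without cKO CL 3592. Counts over all genes in CL were 98 without a filter, 96 with 10 reads in every library, 273 with all 14 libraries, 294 with the mouse block, 16 with 4-digit mice, and 67 to 161 when a library was left out.

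For IL over CL in Ctrl, 4 members were called without scaling, 5 with the mouse as a random block, 4 with it as a fixed block, 1 at a fold change of 2, and 1 to 4 when a library was left out. Counts over all genes were 654 without a filter, 2048 with all 14 libraries, 4381 and 3349 with the random and the fixed block, 572 at a fold change of 2, and 572 to 1664 when a library was left out. For IL over CL in cKO, 2 members were called with either block, and Cd40 was called in every setting. Counts over all genes were 1552 with all 14 libraries, 814 at a fold change of 2, and 1953 to 3627 when a library was left out. The interaction called 4 genes with the mouse block and 0 to 1 when a library was left out, and no member in any setting.

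Signs turned only for members that were not called. With 4-digit mice, Cd83 (-0.016), Cd274 (-0.12) and Icosl (-0.27) turned in IL, and Cd83 (-0.062), Cd274 (-0.14) and Icam1 (-0.11) in CL. When a library was left out, values in IL ran from -0.22 to 0.071 for Cd86 and from -0.046 to 0.31 for Icosl. For IL over CL in cKO they ran from -0.20 to 0.44 for Cd83, from -0.077 to 0.23 for Icam1 and from -0.12 to 0.47 for Slamf1. In the interaction they ran from -0.18 to 0.18 for Cd80, from -0.55 to 0.12 for Cd83 and from -0.77 to 0.023 for Cd274. Of the member values under all alternatives, 745 kept direction and side of the threshold, 16 passed it newly, 18 lost it and 21 turned sign. The block with the mouse number changed no other call than those given with the members. Precision is limited by 3 or 4 mice per group and, for Slamf1, by as few as 17 reads.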
